A study of Rattus norvegicus with 22 samples.

Results

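The comparison described here asks, gene by gene, whether the change that ozone brought about in the rat liver differed between rats with and without a hepatic vagus nerve. It is the ozone change after hepatic vagotomy (vagotomised ozone minus vagotomised air) minus the ozone change after sham surgery (sham ozone minus sham air), on the scale of log2(normalised count + 1). All 22 libraries of the series enter it, 22 of 22, and it was computed for the 12424 of 14971 listed genes whose mean normalised count was at least 10. Below, this double difference is called the difference. A positive difference means that the ozone change lay higher after vagotomy than after sham surgery, which holds both for a gene that rose more and for a gene that fell less.

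The labels name the groups Sham_Air, HepV_Air, Sham_O3 and HepV_O3 and number the replicates in each. Every library is read here as the liver RNA of 1 rat, which the labels do not spell out, and the p-values measure the spread between these libraries. All rats were operated on at 12 weeks of age, had the sham operation or the hepatic vagotomy, recovered for 5 to 6 days and then breathed air or 1 ppm of ozone, 4 hours a day, for 1 day or for 2, with necropsy within 2 hours. In air there were 5 sham and 6 vagotomised rats, and in ozone 6 sham and 5 vagotomised rats. The labels do not say which rats were exposed on 1 and which on 2 days, nor the strain or sex. Surgery within the preceding days was thus common to all 4 groups, the sham air controls included.

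The hepatic branch of the vagus nerve carries parasympathetic fibres to the liver and bile ducts and sensory fibres back to the brainstem. Inhaled ozone reacts at the airway lining, and its effects on the liver are thought to pass through circulating stress hormones, metabolites and nerves. Glucocorticoids and adrenaline released in such a stress raise glucose production in hepatocytes through genes such as Pck1 and Tat. The integrated stress response, in which the factor ATF4 turns on genes such as Chac1, Trib3 and Sesn2, answers lack of amino acids and unfolded protein.

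The libraries held 14098863 to 21141337 reads assigned to genes. Hepatocyte markers were present in each library, and all 8 of 8 were listed, with summed normalised counts of 2448580 to 2716880 in sham air, 2347710 to 3125360 in vagotomised air, 2184090 to 3043400 in sham ozone and 2219480 to 2953220 in vagotomised ozone. Before the results, 4 libraries have to be named that stood apart by a normalised count of 5.8S ribosomal RNA under 200. They were vagotomised air 1 and 5, sham ozone 3 and vagotomised ozone 1, so that the sham air group had none. Their snoRNA genes were low too, summing to 97.2 to 149 normalised counts against 912 to 8035 in the other libraries. The cause of the low values was not tested. Differences without these 4 libraries are given for Lima1, Mavs, Zbtb47, Pcdh12 and Srsf4, but not for every leading gene. They are also given for named genes, and for lists with a stated median, that leaving these libraries out moved by more than 1.5 times or turned in sign. In whole liver, fewer cells of a type and less RNA per cell cannot be told apart.

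No gene had a difference that passed the test in the limma fit, where passing means an adjusted p under 0.05 (Benjamini-Hochberg over the 12424 genes). The count called was 0 (0%), and the smallest adjusted p was 0.105, for Lima1. An unadjusted p under 0.05 was found for 1147 genes (9.23%), 593 with a positive difference (4.77%) and 554 with a negative difference (4.46%). On the read counts recovered from the deposited values, edgeR's quasi-likelihood test also called 0 genes, with 1165 (9.38%) at an unadjusted p under 0.05, whereas DESeq2 called 20 (0.161%), 10 in each direction, with 1237 (9.96%) at an unadjusted p under 0.05. Lima1, Mavs and Zbtb47 were among those 20, and 17 of the 20 were among the 20 genes with the smallest p in limma. The ozone changes themselves were plain in both surgery groups. Ozone changed 3526 genes (28.4%) in sham rats, 1809 upward (14.6%) and 1717 downward (13.8%), and 2619 (21.1%) in vagotomised rats, 1422 upward (11.4%) and 1197 downward (9.63%). Rescaling the libraries to equal column totals turned the share of risen genes among the sham calls from 51.3% to 33.9%, with equal upper quartiles at 39.3%.

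The ozone changes in sham and in vagotomised rats came from separate libraries, but their tests shared the estimate of spread over all libraries. The genes called in sham rats and those called in vagotomised rats were in part the same. Of them, 1834 were called in both, 52.0% of the sham calls and 70.0% of the vagotomised calls. Among the 1834 the direction was opposite for 1 gene, Mavs. A further 2477 genes were called after 1 of the operations only, but 0 of them had a difference that passed, and the smallest adjusted p of the difference among them was 0.196. In limma no gene at all passed, so this count of 0 was fixed and tells nothing about these genes. With DESeq2 the difference passed for several genes called after 1 operation only. They included Serinc4 (adjusted p = 0.0282), Slc22a23 (0.0154), Tmcc2 (0.0282), Zbtb47 (0.031), Srsf4 (0.03) and Polr3e (0.031). Mlh3 (0.03), Tlr3 (0.031), Fads2 (0.031), Akap8l (0.0449), Pmepa1 (0.0499) and Cptp (0.0499) were also among them. A call in 1 surgery group and not in the other is not itself a test of the difference.

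**Figure D1:**
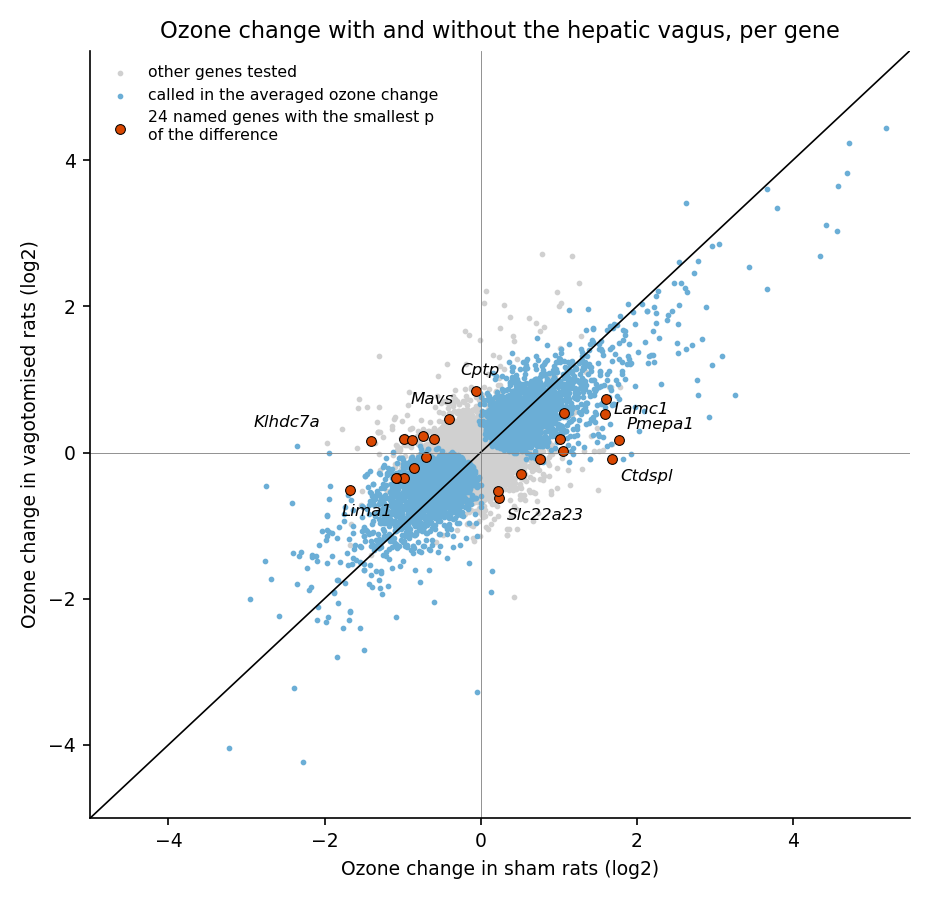
Ozone change in vagotomised rats (vertical axis, log2) against the ozone change in sham rats (horizontal axis, log2) for the 12424 genes tested, with the line of equal change drawn. Blue points are genes called in the ozone change averaged over both operations, and the 24 orange points are the named genes with the smallest p of the difference, of which Mavs, with -0.40 in sham and 0.47 in vagotomised rats, lies above the horizontal and left of the vertical zero line.

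By the naming rule, 24 well expressed genes with the smallest p of the difference are described first. Their differences ranged from -1.78 to 1.56, 13 above 0 and 11 below, with adjusted p from 0.105 to 0.305. Of the 24, 21 changed with ozone in sham rats, 9 upward and 12 downward, and 10 changed in vagotomised rats, 5 in each direction. Over all genes 28.4% changed in sham and 21.1% in vagotomised rats. All 12 that fell in sham rats had a positive difference and all 9 that rose had a negative one, which the choice by the difference itself favours. In 20 of the 24 the ozone change was larger in sham than in vagotomised rats, and in 23 the gap between vagotomised and sham rats was larger in ozone than in air. Lyrm2 was the exception. Over all genes these shares were 57.2% and 62.4%, and the choice by the difference favours such counts too.

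Lima1 encodes a LIM domain protein that binds and bundles actin filaments. Its normalised counts were 455, 462, 437, 341 and 306 in the 5 sham air rats, and in the 6 vagotomised air rats they ran from 306 to 468 with a median of 354. After ozone the sham rats had 96.1 to 157 with a median of 124, and the 5 vagotomised rats had 259, 218, 258, 291 and 268. Each ozone group lay below its own air group without overlap, and every vagotomised ozone rat lay above every sham ozone rat, while the air groups overlapped. Lima1 fell by 1.68 ± 0.14 (log2 ± SE, adjusted p = 2.46e-08) in sham and by 0.51 ± 0.14 (adjusted p = 0.0135) in vagotomised rats, a difference of 1.17 ± 0.20 (adjusted p = 0.105). Between vagotomised and sham rats it stood at -0.10 ± 0.14 in air and at 1.06 ± 0.14 in ozone. Without the 4 libraries low in 5.8S the difference was 1.19 ± 0.23 (adjusted p = 0.0958). Over all alternatives its adjusted p ran from 0.000674 (DESeq2) to 0.355 (1 library left out), and it passed in 5 of 33.

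The 35 tested genes of actin filaments and cell junctions, in which Lima1 is counted, stood near all genes. Their median difference was -0.03, with 17 above 0 and 18 below, against a median of -0.00385 over all genes. It was 0.06 with equal column totals and -0.01 without the libraries low in 5.8S. Ozone lowered 11 of the 35 and raised 2 in sham rats, and did the same in number in vagotomised rats. Of all genes, 13.8% fell and 14.6% rose in sham rats, and 9.63% fell and 11.4% rose in vagotomised rats. Lmo7, which links adherens junctions to actin, fell by 0.90 ± 0.27 in sham rats and stood at -0.07 ± 0.27 in vagotomised rats, a difference of 0.82 ± 0.38 (adjusted p = 0.525).

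Mavs encodes the mitochondrial adaptor through which the cytosolic RNA sensors switch on interferon genes. Sham air rats had 435, 486, 427, 456 and 396 normalised counts and sham ozone rats 258 to 419 with a median of 328. Vagotomised air rats had 340 to 477 with a median of 385, and vagotomised ozone rats 503, 518, 563, 628 and 496. The sham groups overlapped, and the vagotomised ozone rats lay above all other rats of the series. Mavs fell by 0.40 ± 0.12 (adjusted p = 0.0136) in sham rats and rose by 0.47 ± 0.12 (adjusted p = 0.00676) in vagotomised rats, a difference of 0.87 ± 0.17 (adjusted p = 0.188).

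Zbtb47, a zinc finger protein of the BTB family, has a mean count of 23.4 and so falls outside the rule for well expressed genes, but it had the third smallest p. It was listed at 24.1, 24.8, 13.01, 17.4 and 13.3 in sham air, at 16.1 to 30.1 with a median of 21.8 in vagotomised air, at 30.5 to 44.6 with a median of 32.7 in sham ozone, and at 18.1, 14.4, 11.5, 17.8 and 15.9 in vagotomised ozone. Here all sham ozone rats were above all other rats of the series. Zbtb47 rose by 0.90 ± 0.20 (adjusted p = 0.00198) in sham rats and stood at -0.53 ± 0.20 (adjusted p = 0.0664) in vagotomised rats, with a difference of -1.43 ± 0.29 (adjusted p = 0.196). Of 38 tested genes of the BTB zinc finger family, 22 had a difference below 0, the median was -0.06, and 2 had an unadjusted p under 0.05 on the lower side, Zbtb47 and Hic2, which is 5.26% against 4.46% of all genes. With equal column totals 16 of the 38 were below 0 and the median was 0.02. Hic2 rose by 1.44 ± 0.25 in sham rats and stood at 0.44 ± 0.25 in vagotomised rats (difference -1.005 ± 0.35, adjusted p = 0.393).

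Sirpa, Tlr3 and Pcdh12 fell with ozone in sham rats and had a positive difference. Sirpa, a receptor on myeloid cells that binds CD47 and restrains phagocytosis, was at 386, 346, 384, 342 and 479 in sham air and at 151 to 215 with a median of 182 in sham ozone. In vagotomised rats it was at 323 to 380 with a median of 345 in air, and at 253, 246, 264, 261 and 360 in ozone. Sirpa fell by 1.07 ± 0.11 in sham and by 0.34 ± 0.11 in vagotomised rats, and every vagotomised ozone value lay above every sham ozone value (difference 0.72 ± 0.16, adjusted p = 0.25). Tlr3, the endosomal receptor for double-stranded RNA, was at 463, 720, 426, 369 and 454 in sham air, 250 to 345 with a median of 272 in sham ozone, 319 to 582 with a median of 418 in vagotomised air and 361, 472, 557, 535 and 584 in vagotomised ozone. Tlr3 fell by 0.73 ± 0.16 in sham rats and stood at 0.23 ± 0.16 in vagotomised rats, whose air and ozone values overlapped (difference 0.96 ± 0.23, adjusted p = 0.275). Pcdh12, a protocadherin of endothelial cells, fell by 0.88 ± 0.19 in sham rats and stood at 0.17 ± 0.19 in vagotomised rats, and its difference of 1.06 ± 0.27 was 1.41 ± 0.23 without the 4 libraries low in 5.8S (adjusted p = 0.305 and 0.0839).

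Summed markers of the cell types that carry such receptors overlapped between the groups. The 9 of 9 Kupffer cell and macrophage markers summed to 5451 to 6922 normalised counts in sham air, 5017 to 8036 in vagotomised air, 5103 to 7530 in sham ozone and 4836 to 10092 in vagotomised ozone, and none was at 0 in any library. Of these 9 genes, 8 had a difference above 0, with a median of 0.19 that was 0.36 without the libraries low in 5.8S. The 7 listed of 8 liver endothelial markers, where Pecam1 is not analysed here, summed to 5265 to 6280, 4339 to 6272, 4304 to 6637 and 4848 to 5632 in the same order, with 6 differences above 0 and a median of 0.27. The 9 of 9 stellate cell and fibroblast markers summed to 4391 to 7524, 4279 to 7299, 3291 to 6018 and 3315 to 7719, and 6 of the 8 tested had a difference above 0, with a median of 0.24, which became 4 of 8 and -0.00785 without the libraries low in 5.8S. Of 5 tested cholangiocyte markers 4 were below 0 (median -0.28, and -0.47 without those libraries). Of 5 mesothelial markers 4 were above 0 (median 0.14), but 2 of 5 (median -0.26) without those libraries. Of 8 hepatocyte markers 6 were below 0 (median -0.10), but 2 of 8 (median 0.04) without those libraries. The 5 listed of 7 neutrophil markers summed to between 20.0 and 93.3 counts in all libraries, and 3 of them were at 0 in some library. Lymphocyte, platelet, nerve and erythroid markers had 1 to 3 tested genes a list. The part of these cells in the differences of Sirpa, Tlr3 and Pcdh12 was not tested.

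Serinc4, Mlh3, Tmcc2, Klhdc7a and Lyrm2 also fell in sham rats and had a positive difference. Serinc4, of the serine incorporator family, was at 168, 152, 163, 172 and 161 in sham air, at 87.9 to 107 with a median of 103 in sham ozone, at 122 to 158 with a median of 138 in vagotomised air and at 129, 137, 148, 132 and 119 in vagotomised ozone. Serinc4 fell by 0.70 ± 0.09 in sham rats and stood at -0.05 ± 0.09 in vagotomised rats, whose groups overlapped (difference 0.65 ± 0.13, adjusted p = 0.196). Mlh3, a DNA mismatch repair protein, fell by 0.86 ± 0.11 in sham rats and stood at -0.21 ± 0.11 in vagotomised rats, a difference of 0.64 ± 0.15 (adjusted p = 0.275). The differences of Tmcc2, a membrane protein with coiled coils, of the kelch protein gene Klhdc7a and of Lyrm2, a LYR motif protein, were 1.17 ± 0.26, 1.56 ± 0.40 and 0.78 ± 0.19. All 3 fell in sham rats, with changes of -0.98, -1.40 and -0.59, and had values of 0.19, 0.15 and 0.19 in vagotomised rats, none of which passed. Between vagotomised and sham air rats Lyrm2 stood at -0.48 ± 0.13, with no overlap of the groups, and this did not pass (adjusted p = 1).

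**Figure D2:**
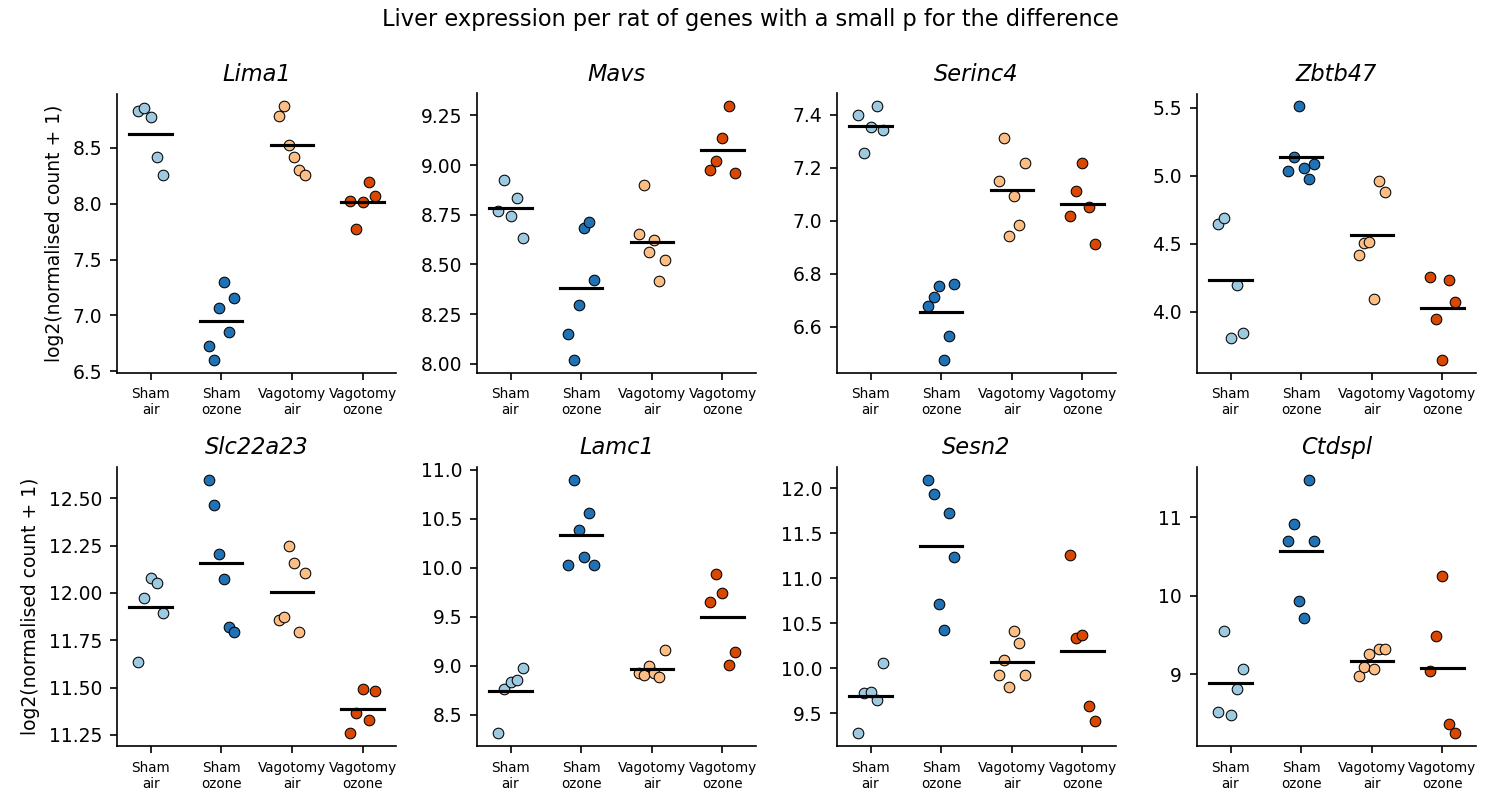
Log2(normalised count + 1) per rat for 8 genes in the 4 groups, where each point is 1 rat and each bar the group mean. In Lima1 and Serinc4 the sham ozone rats form the lowest group, in Mavs the vagotomised ozone rats form the highest group, and in Sesn2 and Ctdspl the vagotomised ozone rats are spread widely, from 680 to 2439 and from 302 to 1214 normalised counts.

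Lamc1, Pmepa1 and Ctdspl rose with ozone in sham rats and had a negative difference. Lamc1, the gamma chain of many laminins in basement membranes, was at 317, 433, 455, 461 and 502 in sham air and at 1043 to 1909 with a median of 1223 in sham ozone. In vagotomised rats it was at 471 to 573 with a median of 486 in air and at 805, 981, 854, 514 and 565 in ozone. The ozone groups did not overlap with each other, and Lamc1 rose by 1.59 ± 0.17 in sham and by 0.53 ± 0.17 in vagotomised rats (difference -1.06 ± 0.24, adjusted p = 0.25). Pmepa1, a feedback inhibitor of TGF-beta signalling, was at 30.3, 22.8, 56.7, 80.1 and 56.4 in sham air, at 126 to 242 with a median of 138 in sham ozone, at 38.9 to 79.0 with a median of 64.0 in vagotomised air and at 68.7, 88.3, 80.7, 54.5 and 44.8 in vagotomised ozone. Pmepa1 rose by 1.77 ± 0.28 in sham rats and stood at 0.17 ± 0.28 in vagotomised rats (difference -1.60 ± 0.39, adjusted p = 0.282). Ctdspl, a small phosphatase that acts on RNA polymerase II and the retinoblastoma protein, had the most negative difference of the 24, -1.78 ± 0.44 (adjusted p = 0.282). It was at 364.9, 748, 356, 448 and 536 in sham air, 837 to 2858 with a median of 1662 in sham ozone, 501 to 640 with a median of 578 in vagotomised air and 525, 719, 1214, 329 and 302 in vagotomised ozone. The vagotomised ozone rats of Ctdspl reached from below all other rats into the sham ozone range. For Lamc1, Pmepa1 and Ctdspl alike, vagotomised ozone rats 4 and 5 were the lowest of their group.

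Srsf4, Polr3e, Mnt, Mafk, Brap and Ptpn9 also rose in sham rats and had a negative difference. Srsf4, a splicing factor of the serine and arginine rich family, rose by 1.05 ± 0.16 in sham rats from 337 to 505 counts in air to 767 to 927 in ozone, and stood at 0.03 ± 0.16 in vagotomised rats. Its difference of -1.03 ± 0.23 (adjusted p = 0.25) was -1.01 ± 0.18 (adjusted p = 0.0924) without the libraries low in 5.8S, of which vagotomised air 5, at 896, was the highest of its group. Polr3e, a subunit of RNA polymerase III, rose by 0.76 ± 0.14 in sham rats and stood at -0.09 ± 0.14 in vagotomised rats (difference -0.85 ± 0.19). Mnt, a repressor that competes with MYC for its partner MAX, rose by 1.02 ± 0.14 in sham rats and stood at 0.19 ± 0.14 in vagotomised rats (difference -0.83 ± 0.20). Mafk, a small MAF protein that pairs with NRF2, rose in both, by 1.07 ± 0.09 and 0.54 ± 0.09, with a difference of -0.53 ± 0.13 (adjusted p = 0.282). Brap, a RAS-responsive ubiquitin ligase, also rose in both, by 1.61 ± 0.16 and 0.73 ± 0.16 (difference -0.88 ± 0.22). Ptpn9, a tyrosine phosphatase, rose by 0.51 ± 0.14 in sham rats and stood at -0.29 ± 0.14 in vagotomised rats (difference -0.80 ± 0.20). Vagotomised ozone rats 4 and 5 were the lowest of their group for Srsf4, Mnt, Mafk, Brap and Ptpn9, but not for Polr3e.

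In 3 of the 24 genes ozone changed expression in vagotomised rats and passed no test in sham rats. Slc22a23, an orphan member of the organic ion transporters, was at 3184, 4014, 4325, 4245 and 3803 in sham air, at 3545 to 6203 with a median of 4514 in sham ozone and at 3555 to 4869 with a median of 4084 in vagotomised air. In vagotomised ozone it was at 2448, 2635, 2877, 2572 and 2858, below all other rats. Slc22a23 fell by 0.62 ± 0.13 (adjusted p = 0.00137) in vagotomised rats and stood at 0.23 ± 0.13 in sham rats (difference -0.86 ± 0.18, adjusted p = 0.25). Akap8l, a nuclear anchoring protein, fell by 0.53 ± 0.13 in vagotomised rats and stood at 0.23 ± 0.13 in sham rats (difference -0.76 ± 0.18). Cptp, which carries ceramide-1-phosphate between membranes, rose by 0.84 ± 0.16 in vagotomised rats and stood at -0.06 ± 0.16 in sham rats (difference 0.90 ± 0.22, adjusted p = 0.282).

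A score over the genes that ozone changed in both operations together gave the overall size of the response per rat. The ozone change averaged over both operations called 4861 genes (39.1%), 2512 upward (20.2%) and 2349 downward (18.9%), and the score is the mean log2 value of the risen minus that of the fallen genes, so its air to ozone gap is fixed by the choice of genes and only its comparison between operations is of interest. It was 0.273, 0.130, 0.145, 0.146 and 0.148 in sham air and 0.133 to 0.316 in vagotomised air. In ozone it was 1.29 to 1.53 in sham rats and 1.198, 1.41, 1.53, 1.22 and 1.18 in vagotomised rats, and the 2 ozone groups overlapped. The means were 0.168 ± 0.059 (SD, n = 5) and 1.42 ± 0.080 (n = 6) in sham rats, and 0.252 ± 0.075 (n = 6) and 1.31 ± 0.15 (n = 5) in vagotomised rats. The ozone change of the score was 1.25 in sham and 1.05 in vagotomised rats, 84.3% of the sham value, a gap of -0.196 beside a pooled SD within groups of 0.0966. The gap is given with no p because the same libraries chose its genes. It was -0.173 without the 4 libraries low in 5.8S, -0.200 with equal column totals, and -0.106 without vagotomised ozone 1, which is low in 5.8S. The genes of the score were called anew in each of these settings.

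**Figure D3:**
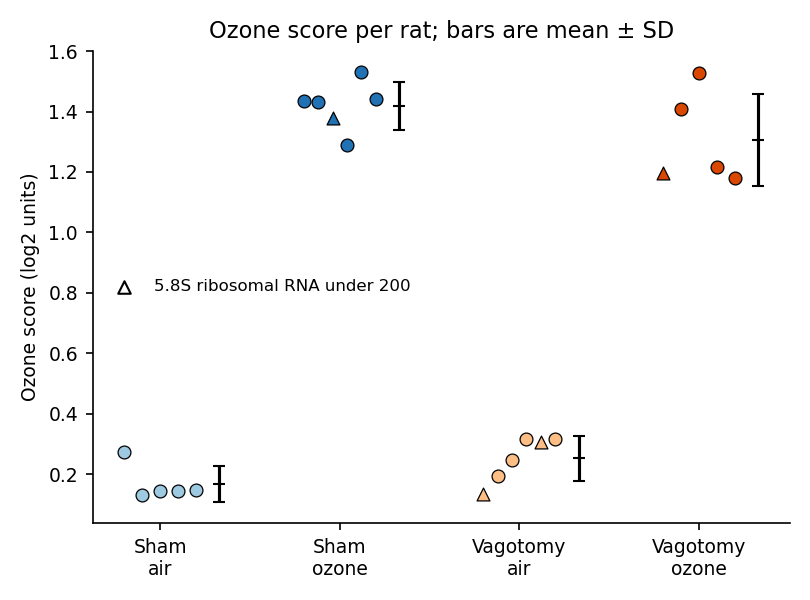
Ozone score per rat in log2 units (vertical axis) in the 4 groups, with triangles for the 4 libraries whose 5.8S ribosomal RNA was under 200 and bars for mean ± SD. The vagotomised ozone rats run from 1.18 to 1.53 and overlap the sham ozone rats, which run from 1.29 to 1.53.

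By direction, the genes risen in the average had a median ozone change of 0.48 in sham and 0.43 in vagotomised rats, and the fallen genes -0.55 and -0.44. Their median differences were -0.06 and 0.08, and -0.0787 and 0.0419 without the libraries low in 5.8S. Equal column totals moved the median difference of all genes to 0.0786. The median difference of the risen genes then turned to 0.0117, and that of the fallen genes was 0.157. Risen and fallen genes were called anew under each setting, 1924 and 2811 with equal column totals, so these medians are over different genes. The sign for the risen genes thus changed with the scaling and the genes called under it. Among the 1147 genes with an unadjusted p of the difference under 0.05, the ozone change was larger in sham rats in 777 (67.7%), against 57.2% of all genes. In 453 of them the vagotomised change had the same sign and was smaller, in 131 the same sign and was larger, and in 563 the opposite sign. Within these 1147 genes, the gap between vagotomised and sham rats was larger in ozone than in air in 941 (82.0%), against 62.4% of all genes.

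Of the 8 genes with the largest averaged rise 7 passed after both operations, and of the 8 with the largest averaged fall all 8 did. The exception was Ubbp4, with 3.67 in sham and 3.61 in vagotomised rats, neither of which passed (adjusted p = 0.0864 and 0.112). Tpte2 rose by 5.19 ± 0.39 in sham and 4.44 ± 0.39 in vagotomised rats, with a difference of -0.75 ± 0.56 (adjusted p = 0.743), which was -1.14 without the libraries low in 5.8S. Sds, the serine dehydratase of amino acid catabolism, had a difference of -0.93 ± 0.65 (adjusted p = 0.718) that was -0.58 without those libraries, Fam69c of -1.54 ± 0.52 (adjusted p = 0.393) and Spsb1, an adaptor of a ubiquitin ligase, of -1.66 ± 0.65 (adjusted p = 0.45). Inhba, a subunit of activin, changed by -2.95 ± 0.28 and -2.005 ± 0.28, a difference of 0.95 ± 0.40 (adjusted p = 0.49) that was 0.55 without those libraries. Ppp2r2b, which targets a protein phosphatase to its substrates, changed by -3.22 ± 0.33 and -4.04 ± 0.33, and its difference of -0.82 ± 0.47 (adjusted p = 0.621) thus had the sign of its change. In vagotomised ozone rats 4 and 5, Fam69c was at 128 and 113, against 351 to 492 in the others of the group. Spsb1 was at 84.2 and 45.7 in these rats, against 207 to 290.

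Glucocorticoid response genes lay mostly below 0 in the difference. Of 19 tested, 14 had a negative difference, 8 of them with an unadjusted p under 0.05 on the lower side (42.1% of the list, against 4.46% of all genes) and none on the higher side. Their median difference was -0.52, and the median ozone change was 0.48 in sham and -0.07 in vagotomised rats. None of the differences passed. In sham rats 10 of the 19 rose and 2 fell, and in vagotomised rats 2 rose and 2 fell. Of all genes, 14.6% rose and 13.8% fell in sham rats, and 11.4% rose and 9.63% fell in vagotomised rats. The vagotomised counts of this list were thus near the shares of all genes, which also apply beside the counts of the lists below. For counts at an unadjusted p under 0.05, the shares of all genes were 4.46% lower and 4.77% higher. For the sign counts of every list, 50.5% of all genes had a difference below 0 and 49.5% above. Ddit4, which restrains mTORC1, was at 37.5, 36.7, 47.4, 58.9 and 67.7 in sham air, at 55.6 to 130 with a median of 107 in sham ozone, at 41.6 to 66.3 with a median of 51.7 in vagotomised air and at 61.0, 58.6, 45.0, 26.7 and 17.7 in vagotomised ozone. The vagotomised ozone rats 4 and 5 were the lowest of the series, and Ddit4 rose by 0.98 ± 0.27 in sham rats against -0.49 ± 0.27 in vagotomised rats (difference -1.47 ± 0.38, adjusted p = 0.305). Klf9, a transcription factor induced by glucocorticoids, rose by 0.77 ± 0.16 in sham rats and stood at 0.10 ± 0.16 in vagotomised rats (difference -0.67 ± 0.23, adjusted p = 0.393). Its vagotomised ozone rats had 1992, 2072, 2194, 1332 and 1328. Rats 4 and 5 were also the lowest of that group for Ppargc1a, Sesn2, Insig1, Fam69c and Spsb1, so these differences rest in part on the same rats. Among the leading genes they were the lowest for Lamc1, Pmepa1, Ctdspl, Srsf4, Mnt, Mafk, Brap, Ptpn9 and Akap8l. This did not hold for Polr3e, Slc22a23 or Zbtb47, nor for Pck1, with rat 4 at 53303 and rat 2 at 46390. No setting left out rats 4 and 5 together.

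Genes of glucose production, of which Pck1 is in the preceding list too, were also mostly below 0. Of 16 tested, 11 had a negative difference, 5 with an unadjusted p under 0.05 (31.2%), and the median was -0.28, or -0.17 without the libraries low in 5.8S. Pck1, the cytosolic enzyme that opens the gluconeogenic pathway, fell by 0.66 ± 0.19 (adjusted p = 0.0138) in vagotomised rats and stood at 0.12 ± 0.19 in sham rats (difference -0.78 ± 0.26, adjusted p = 0.393). Ppargc1a, a coactivator that turns the pathway on, rose in both, by 2.71 ± 0.32 and 1.48 ± 0.32. Its counts were 437 to 863 with a median of 614 in sham ozone and 471, 558, 488, 187 and 137 in vagotomised ozone, so the vagotomised group was split, with rats 4 and 5 below all sham ozone rats and the other three inside their range (difference -1.23 ± 0.45, adjusted p = 0.421). Irs2, the insulin receptor substrate that hepatocytes make in fasting, rose by 1.19 ± 0.30 in sham rats and stood at 0.07 ± 0.30 in vagotomised rats (difference -1.12 ± 0.43, adjusted p = 0.437).

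Clock genes and genes of growth hormone and insulin signalling had medians of -0.37 and -0.31. Of 18 clock genes 15 were below 0 and 2 had an unadjusted p under 0.05, both lower (11.1%, against 4.46% of all genes). In sham rats 6 clock genes rose and 1 fell, in vagotomised rats 2 rose and 1 fell. Hlf, a clock output factor, rose by 0.69 ± 0.19 in sham rats and stood at -0.11 ± 0.19 in vagotomised rats (difference -0.79 ± 0.27). Per1, a clock repressor that glucocorticoids also induce, rose by 1.15 ± 0.29 in sham rats and stood at 0.23 ± 0.29 in vagotomised rats (difference -0.92 ± 0.41, adjusted p = 0.515). Of 24 growth hormone and insulin genes 19 were below 0. At an unadjusted p under 0.05, 2 were lower (8.33%) and 1 higher (4.17%), against 4.46% and 4.77% of all genes. The higher gene was Stat5a, which carries the growth hormone signal and fell by 0.93 ± 0.17 in sham rats (difference 0.50 ± 0.24, adjusted p = 0.534). Trib1, a pseudokinase that lowers hepatic lipid synthesis, rose by 0.87 ± 0.27 in sham rats and stood at -0.17 ± 0.27 in vagotomised rats (difference -1.04 ± 0.38, adjusted p = 0.421).

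**Figure D4:**
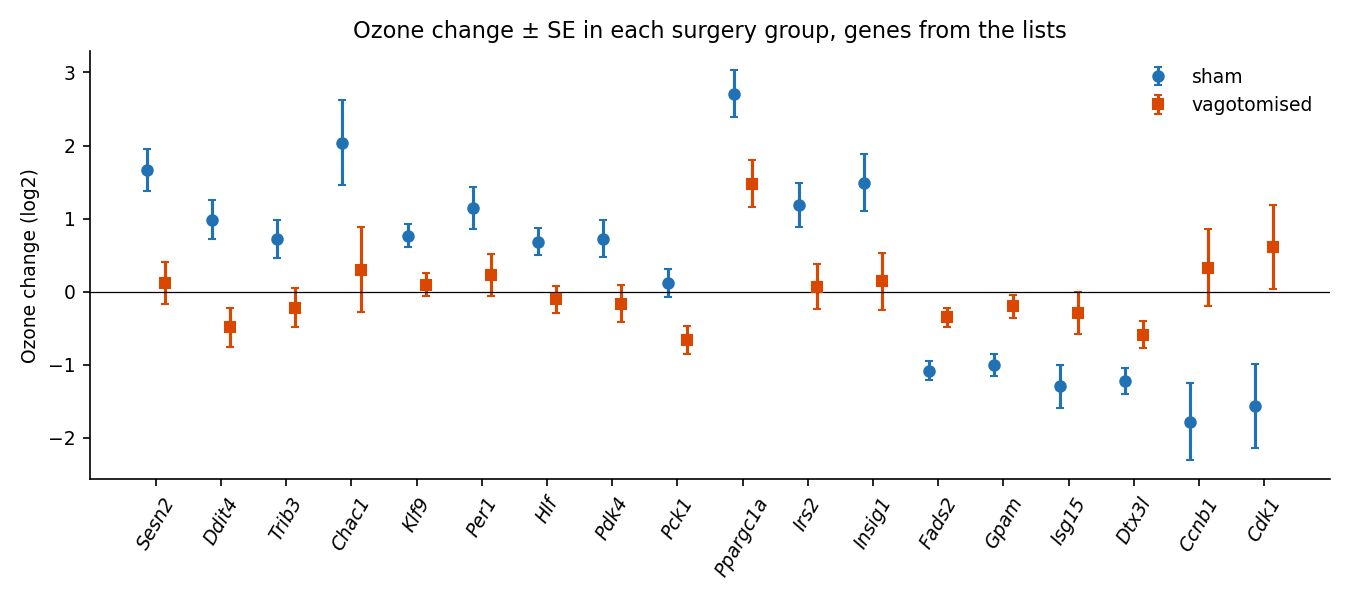
Ozone change (log2, vertical axis) in sham rats (circles) and vagotomised rats (squares) with its SE for 18 genes of the lists. The sham changes lie farther from 0 for Sesn2, Ddit4 and Ppargc1a, while Pck1 stood at 0.12 in sham and fell by 0.66 in vagotomised rats.

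Genes of endoplasmic reticulum stress and ATF4 were the next list. Of 24 tested, 19 had a negative difference, 5 of them with an unadjusted p under 0.05 (20.8%) and none on the higher side, with a median of -0.25. In sham rats 5 rose and 3 fell, and in vagotomised rats 1 rose and 4 fell. Sesn2, a leucine sensor that restrains mTORC1, was at 618, 846, 854, 797 and 1062 in sham air, at 1377 to 4369 with a median of 2895 in sham ozone, at 887 to 1358 with a median of 1031 in vagotomised air and at 2439, 1291, 1321, 765 and 680 in vagotomised ozone. All sham ozone rats were above all sham air rats, whereas the vagotomised ozone rats spread over and below the vagotomised air range and 1 of them lay in the sham ozone range. Sesn2 rose by 1.67 ± 0.29 in sham rats and stood at 0.12 ± 0.29 in vagotomised rats, a difference of -1.55 ± 0.41 (adjusted p = 0.305) that was -1.93 ± 0.38 (adjusted p = 0.109) without the libraries low in 5.8S. Trib3, a pseudokinase that dampens AKT and ATF4, rose by 0.72 ± 0.26 in sham rats and stood at -0.22 ± 0.26 in vagotomised rats (difference -0.94 ± 0.37, adjusted p = 0.462), and without those libraries its difference was -0.56 ± 0.33 (adjusted p = 0.507).

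The promoters of Trib3 and Chac1 are shown, picked from the 4 members of this list with a match to the composite C/EBP-ATF element of ATF4. The element was searched as TGATGNAAN on either strand, and whether ATF4 acts through these matches was not tested. Chac1, which degrades glutathione, was singled out after its values were seen. It had 0.991 to 8.03 counts in sham air, 10.6 to 47.6 in sham ozone, 2.86 to 42.5 in vagotomised air and 4.95 to 32.4 in vagotomised ozone, and a difference of -1.74 ± 0.82 (adjusted p = 0.539). The windows are RefSeq's on the rat build GRCr8, from 250 bases before to 50 bases after the gene start, printed 5′ to 3′ on the strand of the gene with the element in capitals, which in both reads on the opposite strand. The Chac1 window is chr3:126795881-126796180 on the plus strand, and the Trib3 window is chr3:161275484-161275783 on the minus strand.
Chac1: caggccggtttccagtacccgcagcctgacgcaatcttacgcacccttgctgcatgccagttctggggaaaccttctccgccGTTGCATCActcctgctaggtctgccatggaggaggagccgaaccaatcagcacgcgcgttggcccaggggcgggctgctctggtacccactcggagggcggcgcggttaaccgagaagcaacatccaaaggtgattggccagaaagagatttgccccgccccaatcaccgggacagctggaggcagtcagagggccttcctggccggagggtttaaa
Trib3: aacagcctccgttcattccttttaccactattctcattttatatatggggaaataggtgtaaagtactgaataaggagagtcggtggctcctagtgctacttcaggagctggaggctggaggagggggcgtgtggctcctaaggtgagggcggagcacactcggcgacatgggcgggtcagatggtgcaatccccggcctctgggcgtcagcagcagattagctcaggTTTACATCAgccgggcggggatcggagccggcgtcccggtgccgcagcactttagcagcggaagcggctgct
The element began 168 bases before the start in Chac1 and 22 bases before it in Trib3. Of 21 list members with a promoter in the RefSeq table, 4 held the element (Chac1, Fgf21, Herpud1 and Trib3), against 3.97% of all 33469 promoters of the same length. List members were counted by gene and the background by promoter, so these shares are not in the same unit. The match is a description of these letters, and the difference of Fgf21, a hepatic stress hormone with the same element, was 0.13.

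Lipid genes were grouped by pathway. Of 20 tested genes of fatty acid and triglyceride synthesis, 15 had a positive difference, with 3 higher and 2 lower at an unadjusted p under 0.05 and a median of 0.21, or 0.13 without the libraries low in 5.8S. In sham rats 7 of them fell and 3 rose, in vagotomised rats 3 fell and 1 rose. Fads2, a rate-limiting desaturase, was at 12222 to 23786 in sham air, 7454 to 8772 in sham ozone, 12835 to 15950.2 in vagotomised air and 9164 to 13788 in vagotomised ozone. All vagotomised ozone rats were above all sham ozone rats, and Fads2 fell by 1.08 ± 0.13 in sham rats and stood at -0.35 ± 0.13 in vagotomised rats (adjusted p = 0.0532), a difference of 0.73 ± 0.18 (adjusted p = 0.282). Gpam, which starts triglyceride assembly, fell by 1.00 ± 0.15 in sham rats and stood at -0.20 ± 0.15 in vagotomised rats (difference 0.80 ± 0.22, adjusted p = 0.305). Mlxipl, the glucose-sensing factor ChREBP, went the other way, with a fall of 0.85 ± 0.16 in vagotomised rats and -0.25 ± 0.16 in sham rats (difference -0.60 ± 0.22). Cholesterol genes had a median of -0.04, and fatty acid oxidation genes of -0.03, both turning sign with equal column totals. Insig1, the brake on sterol synthesis, rose by 1.49 ± 0.39 in sham rats and stood at 0.14 ± 0.39 in vagotomised rats, where its counts of 29049.5, 16773, 14749, 5857 and 6482 overlapped the vagotomised air and the sham ozone values (difference -1.35 ± 0.55, adjusted p = 0.474).

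Of 21 genes of bile acid and xenobiotic metabolism, 17 had a negative difference, 4 with an unadjusted p under 0.05 lower and 1 higher, and the median was -0.34. Por, which feeds electrons to the cytochromes P450, rose in both, by 2.54 ± 0.22 and 1.76 ± 0.22 (difference -0.77 ± 0.31, adjusted p = 0.462). Abcc2, the canalicular export pump for conjugates, fell by 0.68 ± 0.16 in vagotomised rats and stood at -0.15 ± 0.16 in sham rats (difference -0.53 ± 0.22, adjusted p = 0.493). Slc27a5, which activates bile acids for conjugation, was at -0.27 ± 0.11 in vagotomised and 0.16 ± 0.11 in sham rats, neither of which passed (difference -0.43 ± 0.16). Among 19 antioxidant genes of NRF2, 10 were above 0 and 9 below, with a median of 0.03 (0.12 with equal column totals and 0.06 without the libraries low in 5.8S), and 7 fell in each surgery group.

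Of 35 tested interferon-stimulated genes, 23 fell with ozone in sham and 15 in vagotomised rats, none rose, and the others did not pass. The difference was above 0 in 29 and below in 6, with 4 at an unadjusted p under 0.05 on the higher side (11.4%, against 4.77% of all genes), and the median was 0.17. Dtx3l, a ubiquitin ligase induced by interferon, changed by -1.22 ± 0.18 and -0.59 ± 0.18 (difference 0.63 ± 0.26, adjusted p = 0.473). Isg15, a ubiquitin-like protein, was at 20.8 to 111 with a median of 42.9 in sham ozone and at 76.3, 58.6, 95.3, 66.3 and 80.2 in vagotomised ozone. Isg15 fell by 1.30 ± 0.29 in sham rats and stood at -0.29 ± 0.29 in vagotomised rats (difference 1.01 ± 0.41, adjusted p = 0.468).

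Genes of mitosis and DNA replication had the highest median of the lists. Of 31 tested, 25 had a positive difference, and the median was 0.51. At an unadjusted p under 0.05, 9 were higher (29.0%, against 4.77% of all genes) and 2 lower (6.45%, against 4.46%). In sham rats 9 fell and 5 rose, while in vagotomised rats none fell and 4 rose. Ccnb1, the cyclin of mitotic entry, was at 5.35, 15.9, 16.7, 5.79 and 7.18 in sham air, at 0 to 9.44 with a median of 1.12 in sham ozone, at 12.1 to 54.5 with a median of 22.1 in vagotomised air and at 23.8, 55.7, 28.3, 15.8 and 36.4 in vagotomised ozone. The vagotomised ozone rats lay above all sham ozone rats and overlapped the vagotomised air rats. Ccnb1 fell by 1.78 ± 0.52 in sham rats and stood at 0.33 ± 0.52 in vagotomised rats (difference 2.11 ± 0.74, adjusted p = 0.393), and between vagotomised and sham rats it stood at 1.26 ± 0.52 in air and at 3.37 ± 0.52 in ozone. Cdk1, its kinase partner, had a difference of 2.18 ± 0.81 (adjusted p = 0.428). Mcm7, of the helicase that opens replication origins, rose by 0.77 ± 0.15 in sham rats and stood at 0.18 ± 0.15 in vagotomised rats, and its difference of -0.59 ± 0.21, which was -0.35 without the libraries low in 5.8S, had the opposite sign to those of Ccnb1 and Cdk1.

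Ribosome biogenesis genes, which make the nucleolar machinery, rose in both operations, 23 of 30 in sham and 19 of 30 in vagotomised rats, and none fell. Of the 30, 25 had a negative difference, 3 with an unadjusted p under 0.05 (10.0%), with a median of -0.20. With equal column totals 19 were below 0 and the median was -0.12, and without the libraries low in 5.8S it was -0.11. Gnl3, nucleostemin, rose by 1.31 ± 0.15 and 0.85 ± 0.15 (difference -0.45 ± 0.21, adjusted p = 0.534), and Nop2, a ribosomal RNA methyltransferase, rose by 0.56 ± 0.16 in sham rats and stood at -0.04 ± 0.16 in vagotomised rats (difference -0.60 ± 0.22). Of 28 autophagy, lysosome and proteasome genes, 20 were below 0 with a median of -0.14, which was -0.06 with equal column totals and -0.05 without the libraries low in 5.8S, and the proteasome subunit Psmb4 had a difference of -0.50 ± 0.16 (adjusted p = 0.393).

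In the other lists the sign of the median turned with the scaling or with the libraries low in 5.8S. Amino acid catabolism and the urea cycle, of which 20 of 29 genes rose in sham and 14 rose and 1 fell in vagotomised rats, had 20 of 29 differences below 0 and a median of -0.08. An unadjusted p under 0.05 was found for 1 gene, lower (3.45%, against 4.46% of all genes). With equal column totals 14 of the 29 differences were below 0 and the median was 0.00187, and without the libraries low in 5.8S the median was -0.13. Glycogen and glucose genes were 10 above and 10 below 0, but 13 above and 7 below with equal column totals and 6 above and 14 below without those libraries. Within them Stbd1, which tethers glycogen to membranes, fell in both, with changes of -1.97 ± 0.21 and -1.15 ± 0.21 (difference 0.82 ± 0.30, adjusted p = 0.417). Acute phase genes had a median of -0.07, immediate early genes of -0.06 and oxidative phosphorylation genes of -0.04, and all 3 signs turned with equal column totals. Without the libraries low in 5.8S these medians were -0.03, 0.16 and 0.04. Of 15 tested adrenergic, cholinergic and hormone receptor genes, 9 were above 0, with a median of 0.12 that was -0.03 without the libraries low in 5.8S. P2rx4, a receptor gated by ATP, had a difference of -0.35 ± 0.15 (adjusted p = 0.501), which was -0.21 without those libraries. Adra1b, the adrenergic receptor of hepatocytes, had one of -0.41 ± 0.26 (adjusted p = 0.672), which was -0.25 without them, with ozone changes of -0.59 ± 0.18 in sham and -0.99 ± 0.18 in vagotomised rats, both of which passed.

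**Figure D5:**
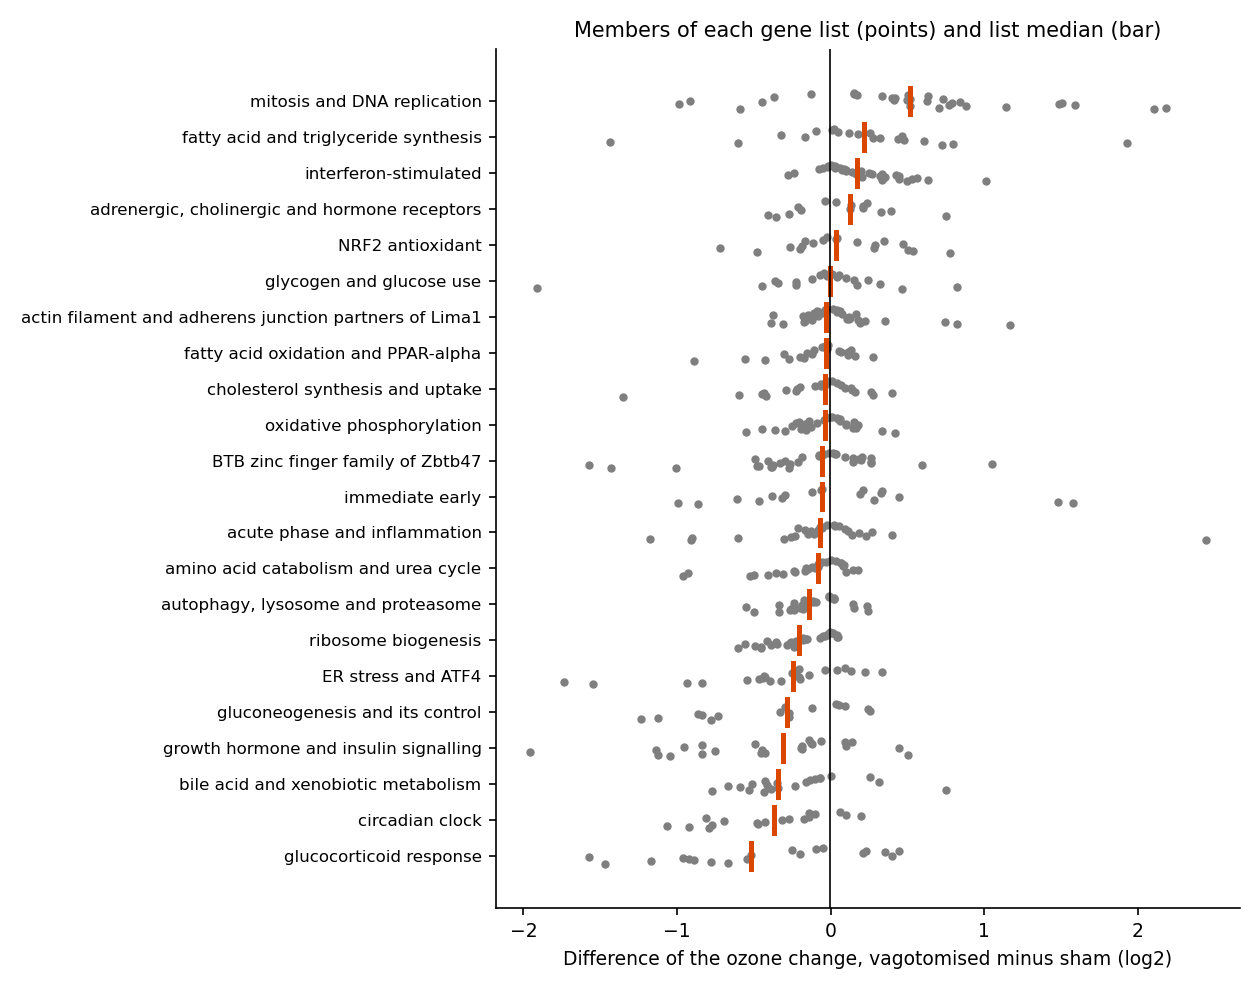
Difference of the ozone change (log2, horizontal axis) for the tested members of 22 gene lists, where each grey point is a gene, each orange bar the median of its list and the black line the median of all genes, -0.00385. The medians run from -0.52 for glucocorticoid response to 0.51 for mitosis and DNA replication.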

How the data were processed

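Liver RNA of 22 rats was sequenced, with 5 or 6 rats in each of 4 groups taken from the sample titles, and nothing in the labels pairs rats between groups. The authors deposited 1 table of normalised read counts, a signal for each gene and library in which the reads are divided by a size factor of that library. STAR, Partek, DESeq and DESeq2 with the rat build rn6 stand in the submitters' processing notes, and versions are not given in the sources used here. Dividing each of the 22 columns by its step turned 100% of its values into whole reads (tolerance 0.001, 14098863 to 21141337 per library), and 0 columns were left out. Genes are listed by symbol without coordinates.

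Values were analysed as log2(normalised count + 1) for genes with a mean of at least 10. With limma 3.58.1 (R 4.3.3), 4 group means were fitted over all libraries with an intensity trend, and two-sided p-values were adjusted by Benjamini-Hochberg over 12424 genes and called under 0.05. Fold changes on this scale understate changes of low genes. edgeR 4.0.16 and DESeq2 1.42.0 were run on the recovered reads as alternatives. The procedure was tested on simulated data, and 50 pairs of libraries within groups were checked for copies (log2 correlations 0.948 to 0.989, lowest chi-square per degree of freedom 9.94).

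Named were the called genes up to 20, the 24 genes with the smallest p among genes with a mean of at least 50, up to 3 members with the smallest p of each of 22 gene lists, and the 8 largest rises and falls of the averaged ozone change, of which some are shown and others are not reported here. Zbtb47, Lima1, the members, lists and tests were chosen with earlier results of these data known. List counts under other scalings and without the 4 libraries low in 5.8S were added after the data were seen. Promoters are RefSeq's, build GRCr8. Python 3.11.15 with matplotlib 3.10.9 drew the figures.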

Additional observations from a re-analysis of the deposited data

Results flagged for a closer look

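In groups of 5 or 6 rats, a value was singled out when its gap to the nearest other value, divided by the range of the group, passed Dixon's 95% critical value. Of 336 groups tested (83 genes followed singly, not all of them named above, and the ozone score), 16 were singled out, and chance gives about 1 in 20. Normalised counts follow, with the range of the other rats of the group.

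In sham ozone 3, which is low in 5.8S, Zbtb47 was at 44.6 (others 30.5 to 34.2), P2rx4 at 793 (611 to 655) and Aox1, an aldehyde oxidase, at 6868 (9275 to 10159). In vagotomised air 5, also low in 5.8S, Pcdh12 was at 125.5 (59.0 to 76.7), Pck1 at 113561 (71058 to 83103) and Npm1, a nucleolar chaperone, at 1501 (1033 to 1186). In vagotomised air 1, the other low library of that group, Klf9 was at 1121 (1624 to 1956) and Tpte2 at 0.851 (6.87 to 11.0). In vagotomised ozone 1, low in 5.8S too, Myc was at 49.6 (23.3 to 28.3) and Dtx3l at 731 (862 to 904). The part of low 5.8S in these values was not tested. The 4 libraries low in 5.8S, out of 22 in the series, thus hold 10 of the 16 values. Several of these values come from the same library and are not independent.

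Of the remaining 6 values, Sirpa was at 360 in vagotomised ozone 5 (246 to 264), Acaa2, of fatty acid oxidation, at 6220 in vagotomised ozone 4 (4636 to 5047), Pdk4, a brake on glucose oxidation, at 1789 in sham ozone 5 (894 to 1112), Dtx3l at 936 in sham ozone 4 (550 to 611) and Clcf1, a cytokine, at 5.57 in sham air 3 (10.7 to 12.9). The ozone score of sham air 1 was 0.273, against 0.130 to 0.148 in the other sham air rats.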

How the results depend on the processing

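The count of genes with a called difference was 0 as reported, 20 with DESeq2 (which gave no adjusted p for 724 genes), 13 with array weights (7 of them among the 20 of DESeq2), and 0 to 1 when 1 library was left out. The 1 gene, Lima1, was called without sham air 5, vagotomised air 2 or sham ozone 4. The count was 0 with edgeR and under each of the other settings run, namely pseudocounts of 0.5 and 5, no minimum count, a minimum mean of 50, equal column totals, equal upper quartiles, the replicate block and leaving out the libraries low in 5.8S. Array weights gave 3962 called genes in vagotomised rats against 2619. Equal column totals moved the median ozone change of all genes in sham rats from 0.00812 to -0.0939. With the replicate number as a block the difference had 0 calls, with 1297 genes at an unadjusted p under 0.05, and the ozone change 3306 calls in sham, 2490 in vagotomised rats and 4750 in the average. The numbers do not pair rats, since 31 same-numbered pairs had correlations of -0.495 to 0.608 and 2 of 22 libraries correlated best with their own number. The score gap ran from -0.252 without vagotomised ozone 3 to -0.106 without vagotomised ozone 1, and from -0.210 to -0.143 under the other settings. Of 2727 recomputed differences of the 83 genes followed singly, 2727 kept their sign. Many of these genes were chosen for a small p of the difference, and all settings share libraries. Both favour a kept sign, so the count is no independent check. Genes with mean counts near 10, such as Cxcl1 and Chac1, rest on few reads.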
